A study of Mus musculus with 12 samples.

Results

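The insulin-like growth factor (IGF) axis was followed here through 10 listed genes in a mouse model of YAP1-driven muscle tumours. The listed genes were the ligands Igf1 and Igf2, the receptors Igf1r and Igf2r, the binding protein Igfbp5, and 5 genes known as oncofetal regulators, Igf2bp1, Igf2bp2, Igf2bp3, Hmga2 and Lin28b. They were chosen by name, and each was read on the probe set that carried its symbol alone and had the highest mean over the arrays. Of the 10 genes, 9 were measured among 19937 genes in all, and Igf2bp2 was not analysed here.

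The measurements were 12 one-colour Affymetrix arrays, 3 in each of 4 groups. Control mice and tumour donors were on a C57BL/6 background and carried the same genotype, in which Myf5Cre (expressed in muscle progenitors), a Cre-dependent rtTA at R26 and a Teto-driven human YAP1 with the S127A substitution at Col1a make YAP1 expression depend on doxycycline. Control muscle (CTL) was hindlimb muscle of such mice that had not been given doxycycline. The tumours were allografts: interstitial cells from hindlimb muscle of donors kept on doxycycline for 4 weeks were placed in the gastrocnemius of NOD/SCID hosts, which were also on doxycycline. Tumours were taken at day 0 of doxycycline removal (TUM), or after the host had been off doxycycline for 3 days (OFF3) or 6 days (OFF6). CTL was thus whole muscle, whereas the tumours grew in immunodeficient hosts and could hold host cells. The labels give no ages and do not say whether the 3 samples of a group came from separate animals, so p-values measure the spread between these samples.

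IGF1 and IGF2 are secreted ligands that act through the tyrosine kinase receptor IGF1R, while IGF2R takes up IGF2 and carries it to lysosomes, and binding proteins such as IGFBP5 hold the ligands in the matrix and in fluids. The IGF2BP proteins bind mRNAs, Igf2 among them, and HMGA2 is a chromatin protein known to raise Igf2bp2 in myoblasts. LIN28B blocks maturation of the let-7 miRNAs, which in turn repress Hmga2, the Igf2bp genes and Igf1r, and the axis as a whole is known for muscle growth, muscle repair and rhabdomyosarcoma.

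Values are log2 of the deposited intensity, differences are given as log2 ± SE, and a change was called at a Benjamini-Hochberg adjusted p under 0.05 over all 19937 genes in limma. Median intensity per array lay between 86.74 and 93.05. OFF6 replicate 2 stood apart: its mean correlation over genes was 0.9911 with the other OFF6 arrays and 0.9952 with the OFF3 arrays, against 0.9883 and 0.9886 with OFF3 for the other OFF6 arrays. Probe brightness differs between probe sets, so levels are compared between groups and not between genes.

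In TUM compared with CTL, Igf2, Igf1, Igf1r, Igf2bp1 and Hmga2 were higher and Igf2r and Igfbp5 were lower. After doxycycline was removed the set divided: Igf2, Igf2r and Igfbp5 rose at both times, while Igf1r, Igf2bp1, Igf2bp3 and Hmga2 fell at both times. Of the 9 measured genes, 5 rose and 2 fell in TUM against CTL, where 76.2% of all genes were called (30.3% higher, 45.9% lower). In OFF3 against TUM, 4 rose and 4 fell, where 29.4% of all genes were called (13.4% higher, 16% lower). In OFF6 against TUM, 3 rose and 4 fell, where 31.5% were called (14.9% higher, 16.6% lower). All arrays of the first group lay above all of the second for 5 genes in TUM against CTL, 5 in OFF3 against TUM and 4 in OFF6 against TUM, as they did for 32.3%, 22.1% and 26.9% of all genes. They lay below for 3, 4 and 4 genes, against 50.4%, 22.7% and 21.6% of all genes. The median difference of the 9 genes was 0.69, 0.03 and 0.04 in these 3 comparisons, and that of all genes was -0.15, 0.02 and 0.05. The 3 comparisons share the TUM arrays, so they are not independent of each other.

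**Figure D1:**
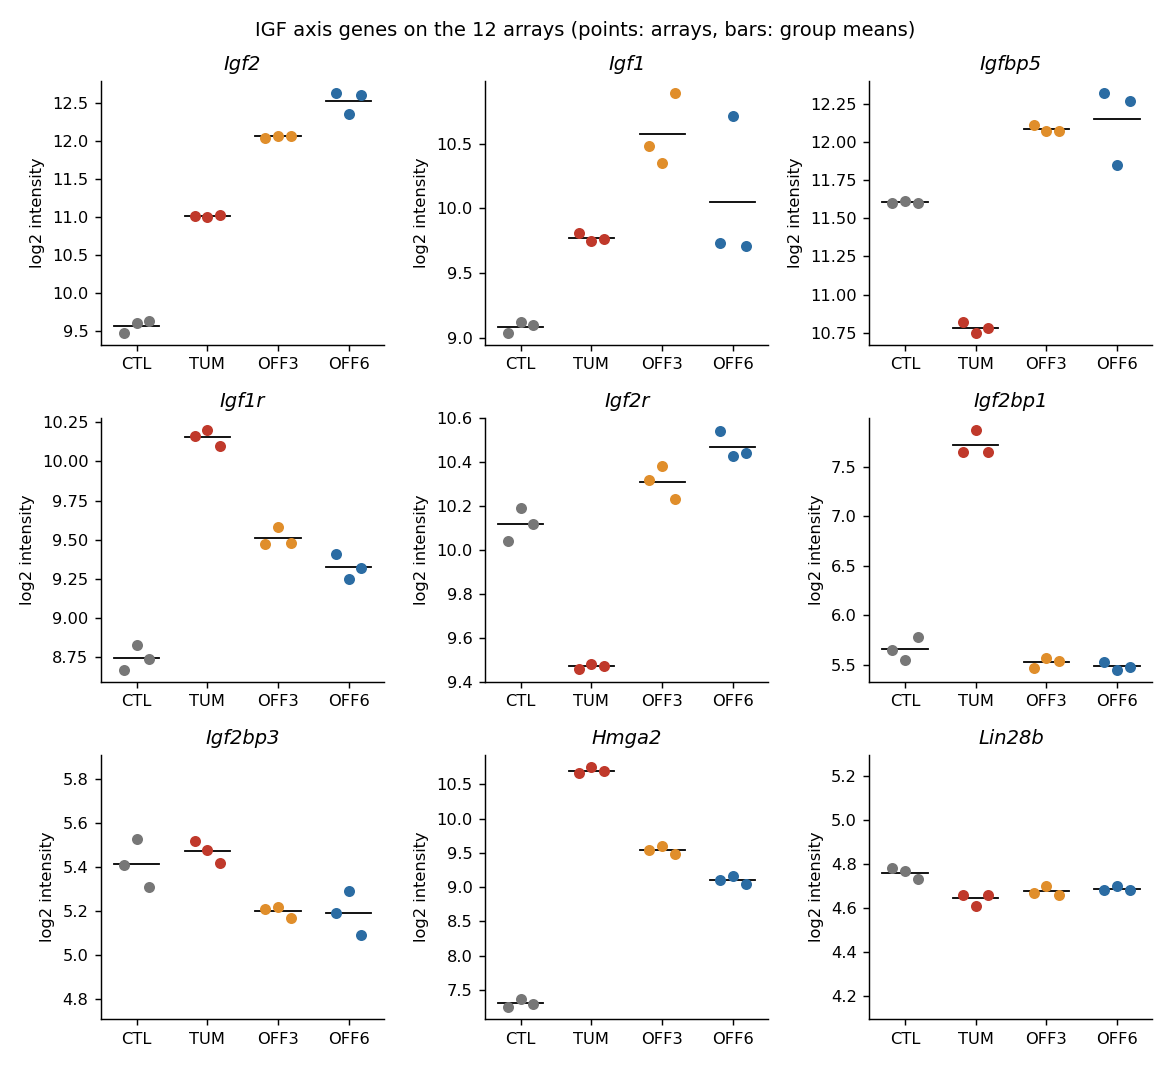
Log2 intensity (y axis, scaled separately for each gene) of the 9 measured genes on each of the 12 arrays (points), by group (x axis: CTL muscle, TUM day 0, OFF3 and OFF6), with group means as bars. Igf2 climbs from 9.57 in CTL to 12.53 in OFF6, whereas Igf2bp1 and Hmga2 peak in TUM at 7.72 and 10.70.

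Igf2, the fetal growth ligand, rose from muscle to tumour and went on rising after doxycycline was removed. On the log2 scale its intensity was 9.48, 9.61 and 9.63 in CTL, 11.02, 11.00 and 11.03 in TUM, 12.04, 12.07 and 12.07 in OFF3, and 12.63, 12.35 and 12.60 in OFF6. No array of one group overlapped another group, and the order was CTL, TUM, OFF3, OFF6. The difference from CTL to TUM was 1.44 ± 0.07 (2.72-fold, adjusted p = 1.88e-09). OFF3 lay above TUM by 1.04 ± 0.07 (2.06-fold, adjusted p = 7.15e-07) and OFF6 by 1.51 ± 0.07 (2.85-fold, adjusted p = 3.88e-08). The step from OFF3 to OFF6 was 0.47 ± 0.07 (1.38-fold, adjusted p = 0.00395), and it missed the threshold when only the 6 arrays compared were fitted (adjusted p = 0.0797, range over the alternatives 2.09e-07 to 1). By day 6 Igf2 stood 2.95 above CTL (7.75-fold, adjusted p = 8.39e-12), further from the muscle level than at day 0. No group was kept on doxycycline over those days, so doxycycline removal and elapsed time cannot be told apart.

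Within the OFF6 group, Igf2 was lowest on replicate 2, the array that stood apart. The summed intensity of 8 myogenic and embryonic muscle markers was 28983, 21027 and 29181 on the same 3 arrays, against 10313 to 10920 in TUM and 18194 to 18858 in OFF3. In CTL, where Igf2 was lowest, the sum was 16451 to 16632, above that in TUM. The brightest of these markers in CTL were Actc1 and Des, with geometric mean intensities of 8390 and 6580 (2150 and 4720 in TUM). Of the 8 markers, 4 were higher in TUM than in CTL (Myh3, Myog, Myf5 and Myod1) and 3 were lower. Against TUM, 5 of 8 rose and 1 fell in OFF3, and 6 of 8 rose and 2 fell in OFF6. Over all genes 76.2%, 29.4% and 31.5% were called in these 3 comparisons. The part of muscle cell content in the Igf2 result was not tested. In these bulk samples more cells of a type and more RNA per cell cannot be told apart. Without OFF6 replicate 2 the Igf2 difference from TUM was 1.6 and that from OFF3 was 0.56.

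The RefSeq promoter table (GRCm38.p6) holds 4 start sites for Igf2, and the 250 bases before each were searched on both strands for GGAATG, the core of the element bound by TEAD proteins, the DNA-binding partners of YAP1. The windows of 3 start sites held 4 matches, shown here because Igf2 rose both in YAP1-driven tumours and after their doxycycline was removed. Capitals mark the match as it reads on the gene's strand (GGAATG, or CATTCC where the match is on the other strand). The lines give 30 bases each, 5′ to 3′ on the minus strand.
Igf2 start site 1, chr7:142657642-142657671: gtgctttgctaaGGAATGgtccaaggctag
Igf2 start site 2, chr7:142658967-142658996: gggtgacgcctcCATTCCtcccccctcaac
Igf2 start site 3, chr7:142661472-142661501: aataattttcctCATTCCccaacttggatt
Igf2 start site 3, chr7:142661366-142661395: ctttgggccgctCATTCCcaggaccgcaaa
The match in start site 1 begins 163 bases before the start, and the others begin 180, 218 and 112 bases before theirs. Of 32851 promoters in the table, 12.6% held the motif in a window of this length, so a match is a description of the sequence and not a binding site. Among the other listed genes with a promoter entry, Igfbp5 held 1 match and Igf1, Igf1r, Igf2r, Igf2bp2, Igf2bp3, Hmga2 and Lin28b held none in this window. The E-box CAGCTG, the form bound by muscle regulatory factors such as MYOD1, occurred in 13.0% of promoters and, among the 9 listed genes with a promoter entry (Igf2bp1 was not searched), in the Igf1 window alone, where it begins 157 bases before the start.
Igf1, plus strand, chr10:87860942-87860971: gggaagagaggtCAGCTGcctagagcgatt

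Igf1, the ligand that growth hormone controls in liver and that muscle and its stromal cells also make, was higher in TUM than in CTL and highest in OFF3. Its log2 intensity was 9.04, 9.12 and 9.10 in CTL and 9.81, 9.75 and 9.76 in TUM. It was 10.48, 10.35 and 10.89 in OFF3 and 9.73, 10.71 and 9.71 in OFF6. The OFF3 arrays were all above the TUM arrays, whereas OFF6 was split: replicates 1 and 3 lay just below the TUM arrays, and replicate 2 lay within the OFF3 range. The difference was 0.69 ± 0.22 from CTL to TUM (1.61-fold, adjusted p = 0.012) and 0.80 ± 0.22 from TUM to OFF3 (1.74-fold, adjusted p = 0.0136).

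Both Igf1 calls were fragile. That from CTL to TUM was lost with quantile normalisation (0.54, adjusted p = 0.0526, range 3.64e-06 to 0.907), and that from TUM to OFF3 was lost without OFF3 replicate 3 (0.64, adjusted p = 0.064, range 1.73e-05 to 1). OFF6 did not pass against TUM (0.28, 95% interval -0.19 to 0.75, adjusted p = 0.373) or against OFF3 (-0.53, 95% interval -1.0 to -0.05, adjusted p = 0.153). Without OFF6 replicate 2, OFF6 was 0.86 below OFF3, a difference of -0.86 that passed (adjusted p = 0.000266, range 6.38e-05 to 1), and -0.05 from TUM. The day 6 level of Igf1 thus rested on 1 array, whereas every OFF6 array of Igf2 lay above OFF3.

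The genes whose pattern over the 12 arrays was most like that of Igf1 included the mast cell proteases Mcpt4, Cpa3 and Cma1, with Pearson r of 0.976, 0.973 and 0.972. The other nearest genes were Mir15a (0.977) and Snord33 (0.970), out of 7171 candidates whose spread was at least 50% of that of Igf1. Cpa3, a mast cell carboxypeptidase, had log2 intensity of 10.81, 10.63 and 11.27 in OFF3 and 9.56, 11.01 and 9.68 in OFF6. Cpa3 was thus high on the same OFF6 array as Igf1. The summed intensity of 10 macrophage markers was 15889, 22471 and 15775 on the 3 OFF6 arrays, and that of 8 fibroblast markers was 18823, 25217 and 17844. Both sums were highest on replicate 2 too, and in OFF3 they lay at 21431 to 22629 and 24990 to 26111. Their part in the Igf1 values was not tested.

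**Figure D2:**
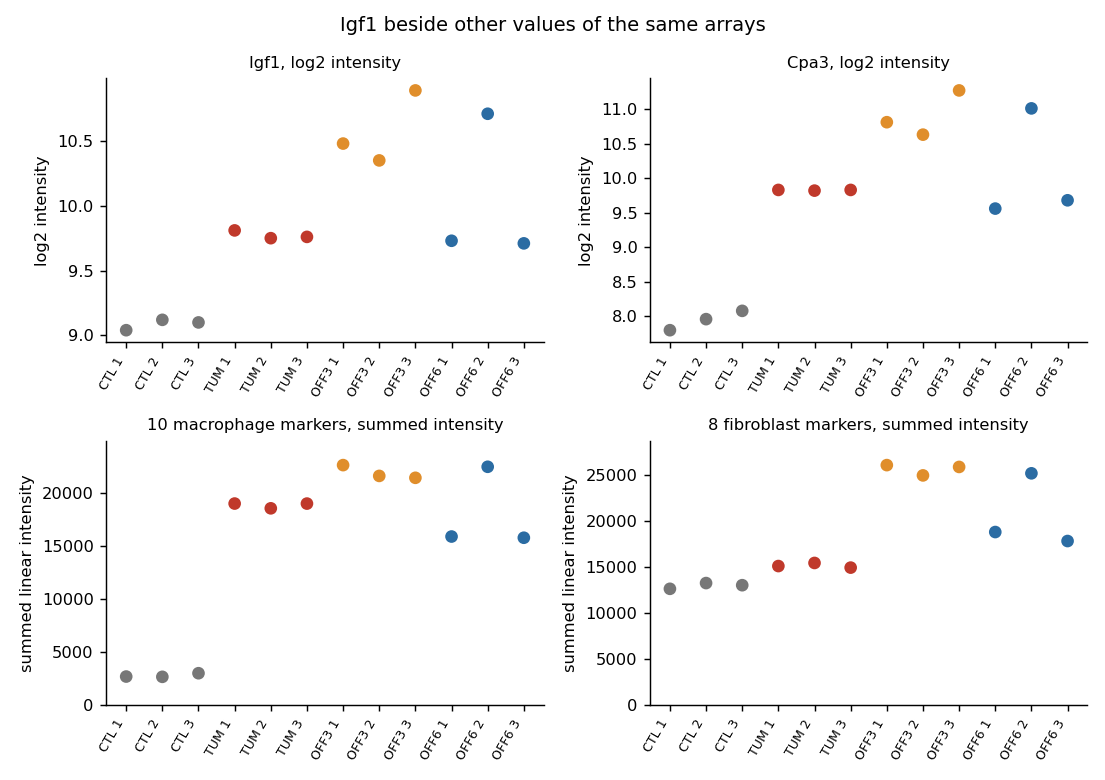
Log2 intensity of Igf1 and of the mast cell gene Cpa3, and summed linear intensity of 10 macrophage and 8 fibroblast markers (y axes), on each of the 12 arrays (x axis, 1 point an array, coloured by group). In all 4 panels OFF6 replicate 2 lies above the other OFF6 arrays, at 10.71 for Igf1, 11.01 for Cpa3, 22471 for macrophage markers and 25217 for fibroblast markers.

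The 2 receptors moved in opposite directions. Igf1r, the signalling receptor, rose in the tumour and fell after withdrawal, and Igf2r, the clearance receptor for IGF2, did the reverse. Igf1r log2 intensity was 8.67, 8.83 and 8.74 in CTL, 10.16, 10.20 and 10.10 in TUM, 9.47, 9.58 and 9.48 in OFF3, and 9.41, 9.25 and 9.32 in OFF6. The groups did not overlap. TUM lay above CTL by 1.41 ± 0.07 (2.65-fold, adjusted p = 8.41e-10), and the difference from TUM was -0.64 ± 0.07 in OFF3 (adjusted p = 1.39e-05) and -0.82 ± 0.07 in OFF6 (1.77-fold, adjusted p = 1.35e-06). Relative to the CTL level, 45.7% of the tumour rise in Igf1r was gone by day 3 and 58.5% by day 6. Igf1r in OFF6 was still above CTL by 0.58 (1.5-fold, adjusted p = 6.24e-06). Between OFF3 and OFF6 the difference of -0.18 (95% interval -0.33 to -0.03) did not pass (adjusted p = 0.111).

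Igf2r log2 intensity was 10.04, 10.19 and 10.12 in CTL, 9.46, 9.48 and 9.47 in TUM, 10.32, 10.38 and 10.23 in OFF3, and 10.54, 10.43 and 10.44 in OFF6. TUM was lowest, and each regressing group lay above it on every array. The difference was -0.64 ± 0.06 from CTL to TUM (1.56-fold, adjusted p = 9.15e-07), 0.84 ± 0.06 from TUM to OFF3 (1.79-fold, adjusted p = 9.19e-07) and 1.00 ± 0.06 from TUM to OFF6 (2.00-fold, adjusted p = 1.92e-07). Igf2r in OFF6 exceeded CTL by 0.35 (adjusted p = 0.000304). The excess over CTL in OFF3 was 0.19 (adjusted p = 0.0149), and it missed the threshold without CTL replicate 1 (0.16, adjusted p = 0.0567), without OFF3 replicate 2 (0.16, adjusted p = 0.0628) and with arrays centred on their median (0.13, adjusted p = 0.103), over a range of 0.000702 to 1. OFF3 and OFF6 differed by 0.16 (95% interval 0.02 to 0.29), which did not pass (adjusted p = 0.135).

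Igfbp5, the binding protein that rises as myoblasts differentiate, was lower in the tumour than in muscle and higher than either after withdrawal. Log2 intensities were 11.60, 11.61 and 11.60 in CTL, 10.82, 10.75 and 10.78 in TUM, 12.11, 12.07 and 12.07 in OFF3, and 12.32, 11.85 and 12.27 in OFF6. The OFF3 arrays all lay within the range of OFF6, and both groups lay above CTL and TUM. The difference was -0.82 ± 0.10 from CTL to TUM (1.77-fold, adjusted p = 7.77e-06), 1.30 ± 0.10 from TUM to OFF3 (2.47-fold, adjusted p = 1.08e-06) and 1.36 ± 0.10 from TUM to OFF6 (2.57-fold, adjusted p = 5.84e-07). Its rise in OFF3 was the 175th highest of 19937 genes. OFF6 and OFF3 differed by 0.06 (95% interval -0.15 to 0.28, adjusted p = 0.791). Without OFF6 replicate 2 that difference was 0.21 and passed (adjusted p = 0.0152, range 0.0036 to 1). Its promoter window is shown for the single match to the TEAD core among the listed genes searched other than Igf2, which begins 233 bases before the start.
Igfbp5, minus strand, chr1:72875081-72875110: gccctttccgtaCATTCCgtgaggaggagg

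**Figure D3:**
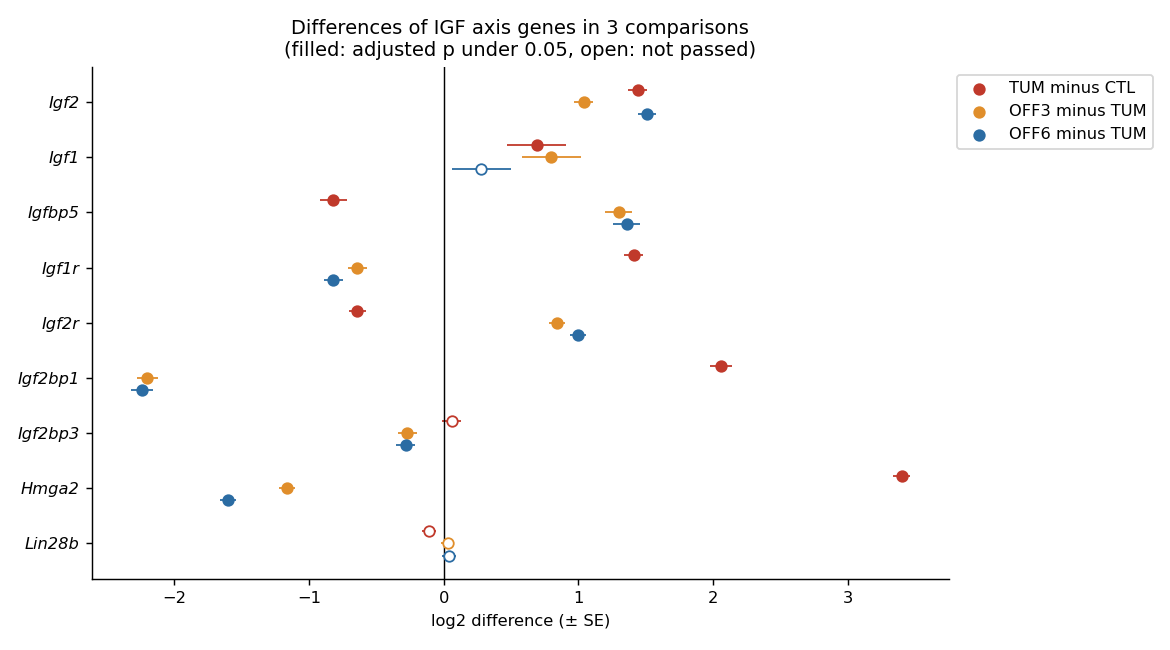
Log2 difference ± SE (x axis) of the 9 measured genes (y axis) for TUM minus CTL, OFF3 minus TUM and OFF6 minus TUM, filled where the adjusted p was under 0.05 and open where it was not. Igf2 is to the right of 0 in all 3 comparisons (1.44, 1.04 and 1.51), while Igf2bp1, Hmga2 and Igf1r are right of 0 in the tumour and left of 0 after withdrawal.

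Igf2bp1, the RNA-binding protein that is abundant in embryos and scarce in adult tissue, was raised in TUM alone. Its log2 intensity was 5.65, 5.55 and 5.78 in CTL, 7.65, 7.87 and 7.65 in TUM, 5.47, 5.57 and 5.54 in OFF3, and 5.53, 5.45 and 5.48 in OFF6. Every TUM array lay above every array of the other groups. TUM exceeded CTL by 2.06 ± 0.08 (4.17-fold, adjusted p = 1.18e-10), and the difference from TUM was -2.20 ± 0.08 in OFF3 (4.58-fold, adjusted p = 9.5e-09) and -2.24 ± 0.08 in OFF6 (4.71-fold, adjusted p = 3.39e-09). The CTL, OFF3 and OFF6 means were dim for the arrays, at the 28.3rd, 29.2nd and 28.1st percentile of all genes, and background levels were not analysed here. The folds against those groups are therefore those of the measured intensities, and how far the transcript fell below the dim level was not measurable.

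Neither regressing group passed against CTL for Igf2bp1, at -0.13 (95% interval -0.31 to 0.04, adjusted p = 0.14) in OFF3 and -0.18 (95% interval -0.35 to 0.00, adjusted p = 0.0666) in OFF6. The OFF3 difference passed with arrays centred on their median (-0.20, adjusted p = 0.0367, range 0.0367 to 1). The OFF6 difference passed with that centring (-0.20, adjusted p = 0.0401), with array weights (-0.19, adjusted p = 0.0375), without CTL replicate 2 (-0.23, adjusted p = 0.03) and without TUM replicate 2 (-0.18, adjusted p = 0.0457), over a range of 0.03 to 1. A second probe set of Igf2bp1 was dim and flat, with group means of 4.61, 4.67, 4.59 and 4.59 in CTL, TUM, OFF3 and OFF6. When the probe sets were averaged, the differences shrank to 1.06 from CTL to TUM, -1.14 from TUM to OFF3 and -1.16 from TUM to OFF6, and all 3 still passed. The second probe set alone passed in none of them, at 0.06 from CTL to TUM (adjusted p = 0.411), -0.08 from TUM to OFF3 (adjusted p = 0.447) and -0.08 from TUM to OFF6 (adjusted p = 0.381), so the Igf2bp1 change rests on 1 probe set.

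Igf2bp3, a relative of Igf2bp1 that is expressed in embryos and many carcinomas, changed little. The log2 values were 5.41, 5.53 and 5.31 in CTL, 5.52, 5.48 and 5.42 in TUM, 5.21, 5.22 and 5.17 in OFF3, and 5.19, 5.29 and 5.09 in OFF6. The probe set was among the dimmest 25% of genes by mean level. TUM and CTL overlapped and differed by 0.06 (95% interval -0.10 to 0.21, adjusted p = 0.481). Igf2bp3 fell by 0.27 ± 0.07 in OFF3 (1.21-fold, adjusted p = 0.0124) and by 0.28 ± 0.07 in OFF6 (1.22-fold, adjusted p = 0.0091), both against TUM. The OFF3 call was lost without TUM replicate 1 (-0.24, adjusted p = 0.0569, range 9.21e-05 to 1).

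Hmga2, the embryonic chromatin protein and let-7 target, had the largest tumour difference of the 9 genes. Its log2 intensity was 7.25, 7.37 and 7.29 in CTL, 10.66, 10.75 and 10.69 in TUM, 9.54, 9.60 and 9.49 in OFF3, and 9.11, 9.16 and 9.05 in OFF6. The 4 groups did not overlap, in the order CTL, OFF6, OFF3, TUM. TUM exceeded CTL by 3.40 ± 0.06 (10.6-fold, adjusted p = 5.02e-13), the 152nd highest difference of all genes. The difference from TUM was -1.16 ± 0.06 in OFF3 (2.23-fold, adjusted p = 6.67e-08) and -1.60 ± 0.06 in OFF6 (3.02-fold, adjusted p = 6.18e-09). Unlike Igf2bp1, Hmga2 stayed well above muscle: OFF6 exceeded CTL by 1.80 (3.49-fold, adjusted p = 6.33e-11), and 34.1% of the rise was gone at day 3 and 46.9% at day 6. From OFF3 to OFF6 it fell by 0.44 ± 0.06 (1.35-fold, adjusted p = 0.00195), a step that missed the threshold in a fit of those 6 arrays alone (adjusted p = 0.0583).

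Lin28b, the brake on let-7 maturation, showed no change that passed in any of the 6 comparisons in limma, and 1 of the 6 had an unadjusted p under 0.05. Log2 intensities were 4.78, 4.77 and 4.73 in CTL, 4.66, 4.61 and 4.66 in TUM, 4.67, 4.70 and 4.66 in OFF3, and 4.68, 4.70 and 4.68 in OFF6. All 12 values lay between 4.61 and 4.78, also among the dimmest 25% of genes. The difference was -0.11 from CTL to TUM (95% interval -0.22 to 0.00, adjusted p = 0.0592), 0.03 from TUM to OFF3 (95% interval -0.08 to 0.14, adjusted p = 0.735) and 0.04 from TUM to OFF6 (95% interval -0.07 to 0.15, adjusted p = 0.558). The first of these passed with arrays centred on their median (-0.12, adjusted p = 0.0441) and with a trended, robust variance (-0.11, adjusted p = 0.0341).

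Set against its regulators, Igf2 rose with Igf2bp1 and Hmga2 from muscle to tumour and moved apart from them afterwards. From CTL to TUM, Igf2 rose by 1.44, Igf2bp1 by 2.06 and Hmga2 by 3.40, whereas Igf2bp3 (0.06) and Lin28b (-0.11) did not pass, which left gaps of 1.39 and 1.56 to Igf2. In OFF3 against TUM, the Igf2 difference minus that of the regulator was 3.24 for Igf2bp1, 2.20 for Hmga2, 1.31 for Igf2bp3 and 1.0 for Lin28b. In OFF6 against TUM these gaps were 3.75, 3.11, 1.79 and 1.47. For Igf2bp1, Hmga2 and Igf2bp3 the gap came from changes of opposite sign that each passed, and for Lin28b it was the Igf2 rise itself. Taken as the share of the tumour rise that was undone, Igf2 stood at -72.1% at day 3 and -104.6% at day 6, the minus sign marking a move further from CTL, against 34.1% and 46.9% for Hmga2.

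**Figure D4:**
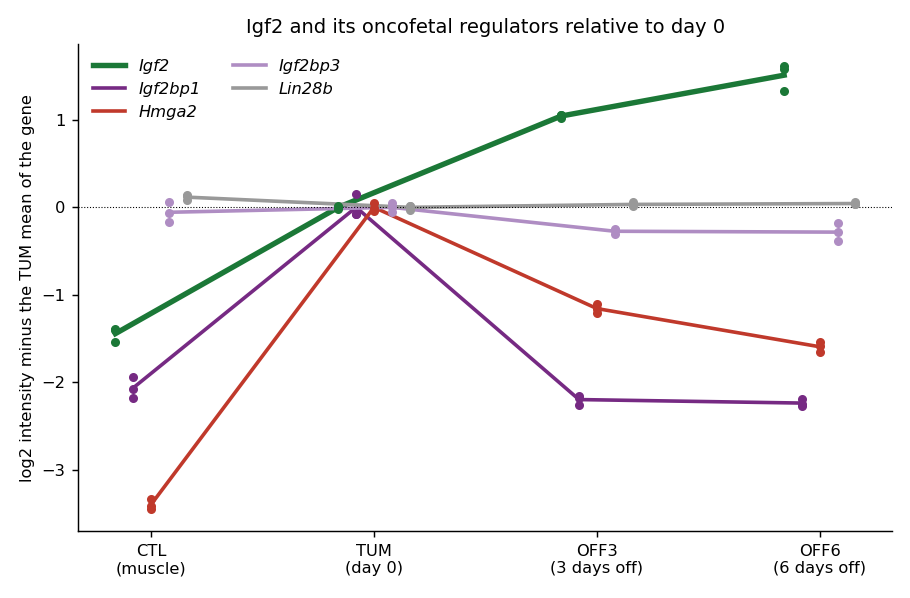
Log2 intensity minus the gene's own TUM mean (y axis) for Igf2, Igf2bp1, Hmga2, Igf2bp3 and Lin28b in CTL, TUM, OFF3 and OFF6 (x axis), with 1 point an array and lines joining group means. From TUM on, Igf2 goes up (1.04 and 1.51) while Igf2bp1 (-2.20 and -2.24) and Hmga2 (-1.16 and -1.60) go down, and Lin28b stays within 0.15 of 0.

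Between OFF3 and OFF6, 1 of the 9 genes rose (Igf2) and 1 fell (Hmga2), where 10.4% of all genes were called (6.05% higher, 4.38% lower). Against CTL, 6 of 9 were higher and 1 lower in OFF3, where 69.8% of all genes were called (28.4% higher, 41.4% lower), and the same counts held in OFF6, where 64.2% were called (28.1% higher, 36.1% lower). The genes above muscle in both were Igf2, Hmga2, Igf1, Igf1r, Igfbp5 and Igf2r. The gene below muscle in both was Igf2bp3, by 0.21 in OFF3 (a difference of -0.21, adjusted p = 0.0183) and 0.23 in OFF6 (-0.23, adjusted p = 0.0152). Those Igf2bp3 calls were lost with quantile normalisation (-0.13, adjusted p = 0.134, and -0.14, adjusted p = 0.115) and without CTL replicate 2 (-0.16, adjusted p = 0.0796, and -0.17, adjusted p = 0.0668). The OFF6 call was also lost without OFF6 replicate 3 (-0.18, adjusted p = 0.0712).

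Of 18 measured genes for other ligands, receptors, binding proteins and the enzymes that free IGFs, 5 were higher and 9 lower in TUM than in CTL, 6 rose and 6 fell in OFF3, and 6 rose and 5 fell in OFF6 against TUM. Of all genes, 76.2%, 29.4% and 31.5% were called in these comparisons. The median differences of the list were -0.17, 0.06 and 0.13, and those of all genes were -0.15, 0.02 and 0.05. The count that fell in OFF3 was 3 without OFF3 replicate 2 and 3 without TUM replicate 3. Insr, the insulin receptor, was 1.55 ± 0.07 lower in TUM (a difference of -1.55, 2.93-fold) and rose by 0.40 ± 0.07 in OFF3 and 0.39 ± 0.07 in OFF6. Stc1, stanniocalcin, whose family holds back the IGFBP4-cutting protease, was 8.54-fold higher in TUM (3.09 ± 0.28, adjusted p = 4.71e-07) and its difference from TUM was -1.67 ± 0.28 in OFF3 and -1.65 ± 0.28 in OFF6. Pappa, which encodes that protease, showed the opposite signs, at -0.58 ± 0.10 in TUM, 0.50 ± 0.10 in OFF3 and 0.41 ± 0.10 in OFF6. Pappa was dim, with means at the 38.4th percentile of all genes in CTL and the 32.4th in TUM. Ins2, Insrr, Igfbp1 and Igfbpl1, also counted as lower in TUM, had CTL means at the 33.6th, 28.5th, 30.6th and 30.3rd percentile. Background levels were not analysed here.

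Among the binding proteins, Igfbp3, the main carrier in blood, rose by 1.73 ± 0.06 in TUM (3.32-fold, adjusted p = 7.27e-11) and its difference from TUM was -0.27 ± 0.06 in OFF3 and -0.41 ± 0.06 in OFF6. Igfbp4, an inhibitory carrier, rose by 1.23 ± 0.15 in TUM and by a further 0.90 ± 0.15 in OFF3 and 0.60 ± 0.15 in OFF6, the last of which was 0.38 without OFF6 replicate 2. Its order thus resembled that of Igf2 from CTL to TUM to OFF3. Igfbp2 shared the signs of Igfbp5, with differences of -0.62 ± 0.14 in TUM, 0.96 ± 0.14 in OFF3 and 0.48 ± 0.14 in OFF6. The last of these was lost without OFF6 replicate 2 (0.39, adjusted p = 0.0605) and without TUM replicate 3 (0.41, adjusted p = 0.0848), over a range of 0.00113 to 1. Igfbp7 did not pass in TUM (0.12, adjusted p = 0.13) and rose by 0.52 ± 0.07 in OFF3. Htra1, a secreted protease that cuts IGFBP5, was 3.81-fold higher in TUM (1.93 ± 0.12) and its difference from TUM was -0.55 ± 0.12 in OFF3 and -1.02 ± 0.12 in OFF6, opposite in sign to Igfbp5. Socs2, a feedback inhibitor of growth hormone signalling, differed by -1.96 ± 0.09 in TUM, 0.64 ± 0.09 in OFF3 and 0.87 ± 0.09 in OFF6.

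Of 29 measured genes of IGF signal transduction, 10 were higher and 15 lower in TUM than in CTL, 8 rose and 5 fell in OFF3, and 9 rose and 4 fell in OFF6 against TUM, with medians of -0.25, 0.02 and 0.07. These counts compare with 76.2%, 29.4% and 31.5% called over all genes. The count that fell in OFF3 was 3 without OFF3 replicate 2 or TUM replicate 1 and 2 without OFF3 replicate 3, TUM replicate 2 or TUM replicate 3, and that in OFF6 was 2 without TUM replicate 3. The adaptors split: Irs1, the docking protein of the IGF1 receptor, was 4.18-fold higher in TUM (2.06 ± 0.08, adjusted p = 1.73e-10), while Irs2 was 1.99-fold lower (-1.0 ± 0.08). Irs2 went on falling after withdrawal, by 0.58 ± 0.08 in OFF3 and 1.13 ± 0.08 in OFF6 relative to TUM. Irs1 did not pass in OFF3 (-0.17, adjusted p = 0.145) and was lower in OFF6 (-0.44 ± 0.08). Grb10, an imprinted adaptor that restrains the insulin and IGF1 receptors, differed by -1.82 ± 0.11 in TUM, 1.31 ± 0.11 in OFF3 (2.49-fold, adjusted p = 2.21e-06) and 1.12 ± 0.11 in OFF6. Its relative Grb14 differed by -2.52 ± 0.09 in TUM and 0.70 ± 0.09 in OFF6.

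Pik3r3, a regulatory subunit of PI3-kinase, did not pass in TUM (-0.05, adjusted p = 0.709) and rose by 0.98 ± 0.12 in OFF3 and 0.97 ± 0.12 in OFF6. The catalytic subunit Pik3cb rose by 1.21 ± 0.14 in TUM and its difference was -0.68 ± 0.14 in OFF3. Akt2, the AKT kinase of metabolic tissues, differed by -0.98 ± 0.11 in TUM and 0.79 ± 0.11 in OFF6. Foxo4, a transcription factor that AKT holds out of the nucleus, was 4.30-fold lower in TUM (-2.11 ± 0.07) and rose by 0.32 ± 0.07 in both OFF3 and OFF6. The adult muscle marker sum was 83969 to 86473 in CTL, 22811 to 24486 in TUM, 42318 to 54551 in OFF3 and 44861 to 46373 in OFF6. The means of Akt2 and Foxo4 were likewise lower in TUM than in each other group. Pik3cb had the opposite signs in TUM and OFF3, and Pik3r3 did not share the fall in TUM. The part of muscle fibre content in the values of these genes was not tested.

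Of 7 genes linked to FoxO factors in muscle catabolism, 6 were lower and 1 higher in TUM than in CTL, with a median of -1.39. In that comparison 76.2% of all genes were called (30.3% higher, 45.9% lower). The ubiquitin ligase Trim63 differed by -3.63 ± 0.11 in TUM (12.4-fold, adjusted p = 1.65e-11), 0.80 ± 0.11 in OFF3 and 1.45 ± 0.11 in OFF6. The ubiquitin ligase Fbxo32 parted from it at day 6, with differences of -1.78 ± 0.10 in TUM, 0.37 ± 0.10 in OFF3 and -0.52 ± 0.10 in OFF6. Cited2, a transcriptional co-regulator, ran the other way, at 0.55 ± 0.09 in TUM and -0.68 ± 0.09 in OFF3. After withdrawal, 3 of the 7 rose and 2 fell in OFF3, and 2 rose and 2 fell in OFF6, beside 29.4% and 31.5% of all genes called. The count that fell in OFF3 was 1 without OFF3 replicate 1 or 2 or any 1 of the TUM arrays, and the count that rose in OFF6 was 1 without TUM replicate 2 or 3.

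**Figure D5:**
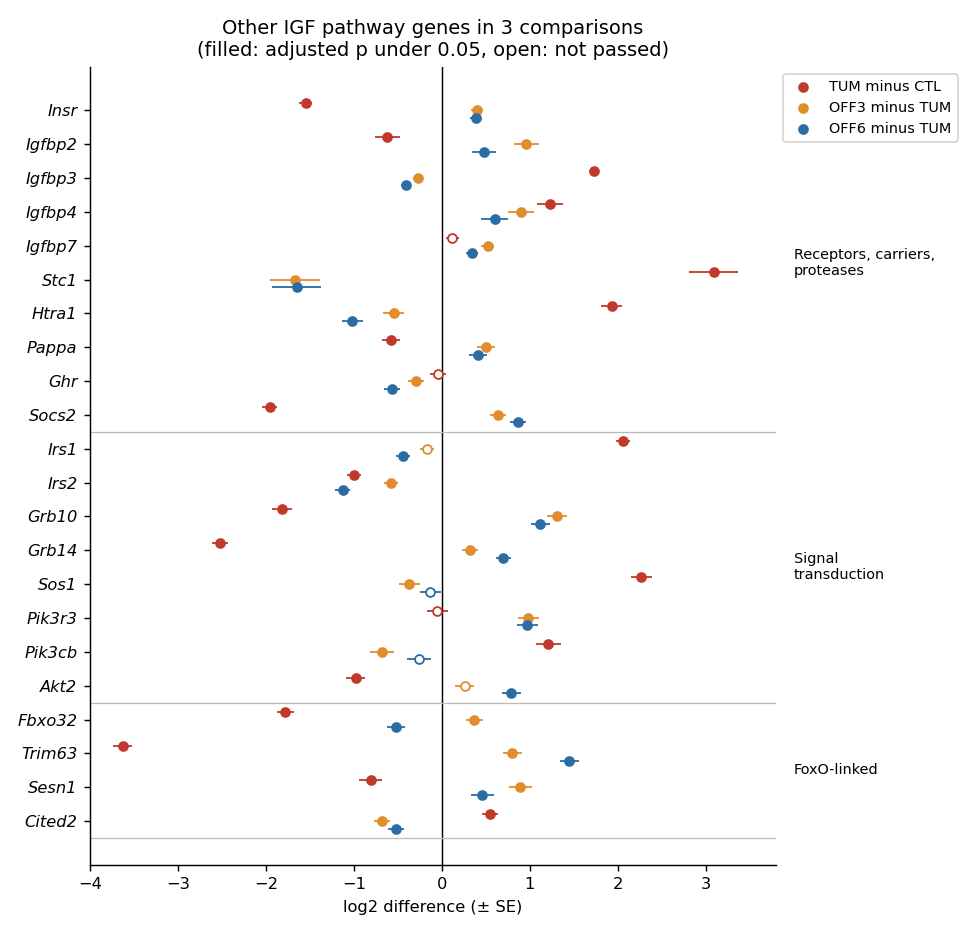
Log2 difference ± SE (x axis) of 22 other genes of the IGF pathway (y axis, in 3 blocks by role) for TUM minus CTL, OFF3 minus TUM and OFF6 minus TUM, filled where the adjusted p was under 0.05. Stc1, Htra1 and Igfbp3 are higher in the tumour (3.09, 1.93 and 1.73) and lower after withdrawal, and Grb10 and Trim63 are lower in the tumour (-1.82 and -3.63) and higher after withdrawal.

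The let-7 family is the link between Lin28b and Hmga2, and its members share the seed that pairs with target mRNAs. All 9 mature 5p names of the family matched in RefSeq carry the seed GAGGUAG at bases 2 to 8, in capitals below. They are printed for the precursors whose array values changed after withdrawal, with let-7a for comparison, at positions in GRCm38.p6.
mmu-let-7a-5p, chr13:48538239-48538260, minus strand: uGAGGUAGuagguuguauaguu
mmu-let-7c-5p, chr16:77599672-77599693, plus strand: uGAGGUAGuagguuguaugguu
mmu-let-7d-5p, chr13:48536078-48536099, minus strand: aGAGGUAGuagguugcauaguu
mmu-let-7e-5p, chr17:17830366-17830387, plus strand: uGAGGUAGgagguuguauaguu
mmu-miR-98-5p, chrX:151913229-151913250, plus strand: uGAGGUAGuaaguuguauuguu
The arrays measured precursor or host transcripts from total RNA, not mature miRNAs. Such values cannot tell the making of a precursor from its processing, so they do not measure the maturation step that LIN28B blocks.

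Of 11 precursor rows read, 10 belonged to the let-7 family. Of these 10, 4 were higher and 3 lower in TUM than in CTL. Against TUM, 3 of the 10 fell in OFF3 and 4 fell in OFF6, and none passed as higher in limma. Nor did any reach an unadjusted p under 0.05 as higher (0 of 10 in OFF3 and 0 of 10 in OFF6). Over all genes 76.2%, 29.4% and 31.5% were called in TUM, OFF3 and OFF6. Those called higher made up 13.4% in OFF3 and 14.9% in OFF6. With array weights, Mirlet7g, Mirlet7f-1 and Mirlet7i passed as higher in OFF3 (0.18, 0.15 and 0.14) and Mirlet7g in OFF6 (0.17). Mirlet7d had mean log2 intensities of 6.55 in CTL, 7.05 in TUM, 6.76 in OFF3 and 6.39 in OFF6, and its difference from TUM was -0.29 ± 0.07 in OFF3 and -0.66 ± 0.07 in OFF6 (adjusted p = 1.4e-05). Mirlet7e had means of 6.62, 7.17, 6.87 and 6.72 and differed from TUM by -0.31 ± 0.07 and -0.46 ± 0.07. Mirlet7c-1 had means of 4.26, 5.90, 5.71 and 4.93 in CTL, TUM, OFF3 and OFF6. It rose by 1.64 ± 0.18 in TUM (adjusted p = 2.5e-06) and differed from TUM by -0.97 ± 0.18 in OFF6. Its mean was lowest in CTL (4.26), and the group means of Mirlet7a-1, Mirlet7a-2, Mirlet7g and Mir98 lay between 4.66 and 5.21. These rows were dim, and background levels were not analysed here. Mir483, which lies in an intron of Igf2, was the other precursor read, and its means were 7.86, 7.11, 7.43 and 7.39 in CTL, TUM, OFF3 and OFF6. It was lower in TUM (-0.75 ± 0.19, adjusted p = 0.00386), opposite in sign to Igf2, and did not pass after withdrawal (0.32, adjusted p = 0.273, and 0.28, adjusted p = 0.312).

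Of 9 other measured genes of the LIN28 and let-7 machinery, 4 were higher and 3 lower in TUM, none passed as higher after withdrawal in limma (0 of 9 also at an unadjusted p under 0.05), and 4 fell in OFF3 and 3 in OFF6. Of all genes, 76.2% were called in TUM, 13.4% and 14.9% were called higher in OFF3 and OFF6, and 16% and 16.6% lower. Among the genes that fell, Drosha lost its OFF6 call in 15 of 24 alternatives and Dgcr8 its OFF3 call in 11 of 24. The count that fell in OFF3 was 2 without OFF3 replicate 2, OFF3 replicate 3, TUM replicate 1 or TUM replicate 2, and 1 without TUM replicate 3. Xpo5, which exports miRNA precursors from the nucleus, rose by 0.87 ± 0.08 in TUM and its difference from TUM was -0.37 ± 0.08 in OFF3 and -0.49 ± 0.08 in OFF6. Lin28a, the paralogue of Lin28b, was lower in TUM (-0.71 ± 0.13) and did not pass in OFF3 (0.05, adjusted p = 0.858). With array weights, Lin28a passed as higher in OFF6 against TUM (0.27, adjusted p = 0.00629, with 0.28 and adjusted p = 0.127 at equal weights).

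Of 13 other measured let-7 targets, 8 were higher and 5 lower in TUM (median 0.67), and 1 rose and 3 fell in each regressing group, beside 76.2%, 29.4% and 31.5% of all genes called in TUM, OFF3 and OFF6. The gene that rose in OFF3 was Tgfbr1, a receptor for TGF-beta, and no target rose there without CTL replicate 2 or 3, OFF3 replicate 1 or 2, or any 1 of the TUM arrays. Without OFF6 replicate 2, 5 targets fell in OFF3 and 2 rose in OFF6. Ccnd1, cyclin D1, paralleled Hmga2: it was 10.3-fold higher in TUM (3.36 ± 0.09, adjusted p = 5.86e-12), and its difference from TUM was -1.13 ± 0.09 in OFF3 and -1.18 ± 0.09 in OFF6. Cdc25a, a phosphatase that drives entry into S phase, differed by 0.81 ± 0.12, -0.96 ± 0.12 and -0.73 ± 0.12. Peg10, an imprinted gene of retroviral origin, had means of 7.63, 9.43, 9.02 and 9.86 in CTL, TUM, OFF3 and OFF6. It rose by 1.80 ± 0.16 in TUM, and neither OFF3 nor OFF6 passed against TUM. Between OFF3 and OFF6 it rose by 0.84 ± 0.16, a step lost when only those 6 arrays were fitted (adjusted p = 0.107). Markers of dividing cells moved alongside Hmga2, Igf2bp1 and these cell-cycle genes, with all 5 measured markers higher in TUM than in CTL and lower in OFF3 and OFF6 than in TUM. Their summed intensity was 334 to 452 in CTL, 6353 to 6727 in TUM, 1299 to 1846 in OFF3 and 1438 to 1813 in OFF6, and the part of dividing cells in the regulators' fall was not tested.

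Of 7 measured mRNAs known as IGF2BP clients, 4 were higher and 3 lower in TUM, and 3 fell in OFF3 and 4 in OFF6, with 1 rising in each (2 in OFF3 without OFF3 replicate 1 or 2). Over all genes 76.2%, 29.4% and 31.5% were called in TUM, OFF3 and OFF6. Myc, the growth-promoting transcription factor, was 5.2-fold higher in TUM (2.38 ± 0.12, adjusted p = 1.33e-09) and its difference from TUM was -1.48 ± 0.12 in OFF3 and -1.29 ± 0.12 in OFF6. Cd44, a hyaluronan receptor, differed by 2.88 ± 0.07, -0.56 ± 0.07 and -0.49 ± 0.07. The client that rose was Btrc, a ubiquitin ligase subunit, by 0.27 ± 0.06 in OFF3 and 0.23 ± 0.06 in OFF6. Igf2, the client after which the family is named, thus had the sign of Btrc after withdrawal and not that of Myc and Cd44.

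The imprinted growth genes Plagl1 and Cdkn1c had the same signs as Igf2 after withdrawal and the opposite sign in the tumour. Plagl1, a zinc finger factor known to act on the Igf2 locus, differed by -0.64 ± 0.20 in TUM, 1.39 ± 0.20 in OFF3 (2.62-fold, adjusted p = 0.000168) and 1.03 ± 0.20 in OFF6. Cdkn1c, a cell-cycle inhibitor that lies near Igf2, differed by -1.01 ± 0.15, 0.75 ± 0.15 and 0.53 ± 0.15. The OFF6 rise of Cdkn1c was lost without TUM replicate 3 (0.47, adjusted p = 0.0662).

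The genes whose pattern was most like that of Igf2 over the 12 arrays were Myh3 (Pearson r of 0.998), Nnmt (0.995), Hes6 (0.994), Cxcl9 (0.993) and Myzap (0.992), out of 3209 candidates. Myh3, embryonic myosin heavy chain, had mean log2 intensities of 6.94, 9.67, 11.25 and 11.96 in CTL, TUM, OFF3 and OFF6. Cxcl9, an interferon-induced chemokine, had means of 7.53, 9.57, 10.75 and 11.43. For Igf2bp1 the nearest of 4220 candidates were Lrp2 (0.994), Amotl2 (0.993), Oscar (0.992), Exo1 (0.988) and Pfas (0.987). Amotl2, a YAP1 target that restrains YAP1, had means of 8.25, 10.02, 8.17 and 7.95, with TUM alone raised, as for Igf2bp1. These correlations describe 12 arrays in 4 groups, and most of each follows from the 4 group means.

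Among the other marker lists, the 10 macrophage markers summed to 2648 to 2989 in CTL, 18551 to 19001 in TUM, 21431 to 22629 in OFF3 and 15775 to 22471 in OFF6, and the 8 fibroblast markers to 12641 to 13266, 14949 to 15456, 24990 to 26111 and 17844 to 25217. From CTL to TUM the fibroblast sum rose, yet 5 of the 8 markers were lower and 3, all collagens, were higher. Their median was -0.96, and 76.2% of all genes were called there. Fibroblast markers were higher in OFF3, where 7 of 8 rose against TUM, alongside Igf1, Igf2 and Igfbp5, and their part in those values was not tested. Endothelial markers rose in 6 of 6 in OFF3, with sums of 2270 to 2355 in TUM and 3365 to 3562 in OFF3. Of all genes, 13.4% were called higher in OFF3. In the day 0 tumour samples the adult muscle markers summed to 22811 to 24486, against 83969 to 86473 in CTL. All 10 of those markers were lower in TUM than in CTL. Whether their signal in TUM came from the grafted cells or from host muscle was not tested.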

How the data were processed

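The authors deposited 1 table of probe set intensity on a linear scale for the 12 arrays, made with RMA (background correction, normalisation between arrays and probe summary), per the submitters' processing notes. The version, build and scan dates were not given in the sources used here. Biotin-labelled cRNA was made from Trizol-extracted, column-purified total RNA, per the labels' protocols. No batch label was at hand.

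The deposited intensity was taken to log2 with no pseudocount. Of 34760 probe sets, 21640 carried 1 symbol, 1321 several and 11799 none in the platform annotation; 21553 of those with 1 symbol matched RefSeq by Entrez ID and no symbol changed. For 954 genes with several probe sets, only the brightest by mean over the 12 arrays entered, giving 19937 genes. Those were fitted in limma 3.58.1 (R 4.3.3) with lmFit and eBayes, 1 mean a group over all 12 arrays, with Benjamini-Hochberg adjustment within each of 6 comparisons. The median SE of a difference was 0.086, which depends on the number of arrays and on the spread between them. On simulated data for OFF3 minus TUM over 19937 genes, 82.1% of 1.5-fold, 98.5% of 2-fold and 100% of 4-fold changes were recovered, and 7.43% of calls were false. The simulation drew independent normal noise and changed 67, 67 and 66 genes by these folds, in OFF3 alone. The real comparison called 29.4% of all genes, so these rates need not hold there.

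The members, lists and tests were chosen with earlier results of these data known. Named are the members, up to 4 called genes with the largest difference a list and comparison plus the largest against the majority, any list gene that is background to a member, and, for Igf2, Igf2bp1 and Igf1, the 5 genes with the highest Pearson r over the arrays among those with at least 50% of the member's SD, without predicted genes. Some listed genes were not analysed here. Replicate numbers did not pair the arrays. Sequences were read from RefSeq tables (GRCm38.p6) with Python 3.11.15, and figures were drawn with matplotlib 3.10.9. Alternatives are given in the closing section.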

Additional observations from a re-analysis of the deposited data

Results flagged for a closer look

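The step from OFF3 to OFF6 differed between the ligand and its regulator in direction. The Igf2 difference, OFF6 minus OFF3, was 0.47, with every OFF6 array above every OFF3 array. The Hmga2 difference for the same arrays was -0.44, with every OFF6 array below every OFF3 array. Both were singled out because they were the members whose OFF6 minus OFF3 difference was called. Igf1r and Igf2r also had no overlap between the OFF3 and OFF6 arrays (-0.18 and 0.16), but neither difference passed. The difference between Igf2 and Hmga2 was not tested.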

How the results depend on the processing

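No result reversed its direction past the threshold under any alternative. Of 1188 alternative values of the member differences other than those of Igf2 listed among the main results, 1140 kept their call, 35 lost it and 13 gained one; of 96 for Igf2, 94 kept it. The Igf2 step from OFF3 to OFF6 kept its size of 0.47 but lost its call with a minimum fold of 1.5 (adjusted p = 1) and with only the 6 arrays compared (adjusted p = 0.0797). Of 288 alternative counts of members, 262 stayed within 1.5 times the main count. With a minimum fold of 1.5 the counts were 2 higher in OFF6 against CTL (6 in the main analysis), 0 higher and 0 lower in OFF6 against OFF3 (1 and 1), 0 lower in OFF3 and 0 lower in OFF6 against CTL (1 and 1), 2 lower in OFF3 against TUM (4) and 0 lower in TUM against CTL (2). With array weights, members in OFF6 against OFF3 were 2 higher and 3 lower, and 2 were lower in OFF6 against CTL. With arrays centred on their median, 3 were lower in OFF3 and 2 in OFF6 against CTL. Quantile normalisation, adjusted p under 0.01 and a filter that removed the dimmest 25% of genes (Igf2bp3 and Lin28b among them, 14952 genes left) each gave 0 lower in OFF3 and 0 in OFF6 against CTL. With only the 6 arrays compared there were 0 higher and 0 lower in OFF6 against OFF3 and 0 lower in OFF6 against CTL. Leaving out 1 array at a time, the count in OFF6 against OFF3 ranged from 1 to 2 in either direction (2 without OFF6 replicate 2), that lower against CTL from 0 to 1 in OFF3 (0 without CTL replicate 2) and from 0 to 2 in OFF6 (0 without OFF6 replicate 3, 2 without TUM replicate 2). Of 18 pairs of arrays that share a replicate number, 3 had deviations correlated above 0.1 (range -0.39 to 0.25), and 1 of 12 arrays correlated best with its own number; a replicate block left every count of members as it was, such as 4 higher and 4 lower in OFF3 against TUM. For the other genes of the lists, 8612 of 9180 alternative values kept their call, 400 lost it and 168 gained one, and 198 of 2016 alternative counts of the pathway lists moved by over 1.5 times. With 3 arrays a group, differences near the SE were not detectable. Low brightness, with background levels not analysed here, limits Igf2bp3, Lin28b, dim let-7 rows such as Mirlet7c-1 and, outside TUM, Igf2bp1. Dim listed genes such as Pappa and Igfbp1 carry the same limit.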
